A study of Bos taurus with 38 samples.

Results

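EPAS1 (ENSBTAG00000003711) encodes the oxygen-regulated alpha subunit of hypoxia-inducible factor 2 (HIF-2α). It was followed here through every library of a study of cattle cumulus-oocyte complexes, as 1 gene of the 27607 counted in each compartment. The gene was chosen because the study named it among transcription factors with more transcript in the cumulus cells of BCB negative complexes. The difference between BCB classes in cumulus cells, and its relation to the library total, are therefore given as a description with no test. Oocytes still in growth break down brilliant cresyl blue (BCB), the dye used for sorting, so that a BCB positive oocyte stays blue and a BCB negative oocyte loses the color. The complexes were aspirated from antral follicles of abattoir ovaries, with no control of the stage of the follicular wave, and all of them were exposed to the dye. Age and breed of the animals were not given in the sources used here. Each of 19 complexes, 9 BCB positive and 10 BCB negative, was split into the oocyte and its cumulus cells, with 1 library of each, and all 38 were used.

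In the presence of oxygen, prolyl hydroxylases such as EGLN2 mark HIF alpha subunits for capture by VHL and degradation. When oxygen falls, the alpha subunits accumulate and pair with ARNT. As a family, the HIF factors activate genes of glucose uptake, glycolysis and vessel growth. Which of the hypoxia response targets listed below respond to EPAS1, and which to another alpha subunit, was not tested. Much of this control acts on the protein, whereas the values here measure EPAS1 transcript only. The granulosa layer and the cumulus cells of an antral follicle lie outside the capillary bed, and cumulus cells carry out much of the glycolysis of the complex. EPAS1 itself was first described in endothelial cells.

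Levels are CPM, EPAS1 counts per 1000000 counts of the library. TMM CPM is the same value after edgeR's TMM factor, which corrects the total for the composition of the library and was set within each compartment. Oocyte libraries held 8886070 to 29810354 counts and cumulus libraries 1103200 to 10430148. EPAS1 had between 1566 and 10820 counts in an oocyte and between 46 and 649 in a cumulus library, and 95% Poisson intervals, which cover counting error only, were narrow beside the spread between complexes in oocytes (159 to 175 CPM for the lowest level, 167 CPM in complex 68). They were wider in the smallest cumulus library, where 46 counts gave 41.7 CPM with an interval from 30.5 to 55.6. The complex numbers fall into 3 runs. Complexes 6 to 24 comprise 3 BCB positive and 1 BCB negative, complexes 65 to 74 comprise 6 and 3, and complexes 86 to 91 comprise 6 BCB negative and 0 BCB positive. For the last of these, class and run cannot be told apart. The labels do not say what the runs mark, nor whether complexes shared an animal, and p-values measure the spread between these complexes. ZP2 and ZP3, proteins of the zona pellucida that mark the oocyte, had medians of 1904 and 1691 CPM in oocytes against 0.171 and 0.377 CPM in cumulus cells. The 8 of 9 cumulus and granulosa markers with an identifier summed to between 5441 and 31541 CPM in cumulus cells and between 55.4 and 3062 CPM in oocytes.

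EPAS1 transcript was more abundant in the oocyte than in its own cumulus cells in 19 of 19 complexes. EPAS1 ranged from 167 to 394 CPM in oocytes, with a median of 304. In cumulus cells it ranged from 21 to 82.5 CPM, with a median of 34.0. The lowest oocyte was above the highest cumulus library, so the compartments did not overlap. On a TMM scale set over the 38 libraries together, the level in the oocyte was 1.57 to 15.2 times the level in its cumulus cells. The smallest ratio belonged to BCB negative complex 68 and the largest to BCB positive complex 70. EdgeR's quasi-likelihood test gave a log2 fold change, oocyte minus cumulus, of 2.58 (SE 0.14, Benjamini-Hochberg adjusted p = 2.78e-20). That fit treated the 38 libraries as independent. With the complex as a block, which keeps the pairs, the fold change was 2.61 (SE 0.21, edgeR adjusted p = 2.97e-11). Without the block, the contrast passed an FDR of 0.01 for 88.8% of the 14785 genes tested, with 46.5% higher in oocytes. EPAS1 was therefore no exception in passing, and 3047 genes had a larger log2 fold change in favor of the oocyte.

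**Figure D1:**
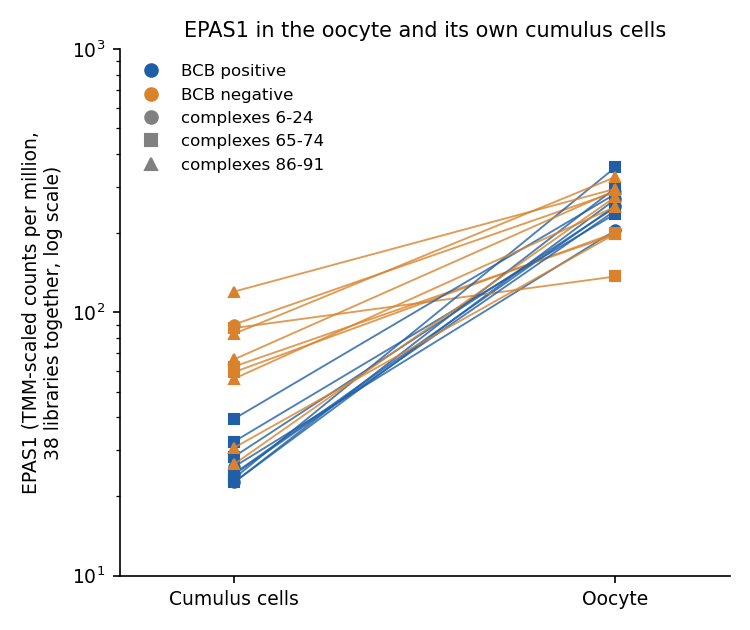
EPAS1 in the 19 complexes, each line joining the cumulus cells and the oocyte of 1 complex, on a log axis of CPM with TMM factors set over the 38 libraries together. Blue is BCB positive, orange is BCB negative, and the marker gives the run of complex numbers. Every line rises toward the oocyte, by 1.57 to 15.2 times.

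ZP2 and ZP3 give a partial view of oocyte RNA in the cumulus libraries. Cumulus EPAS1 amounted to between 5.84% and 25% of the level in the own oocyte. The same share was at most 1.06% for ZP2, in complex 68, and at most 2.19% for ZP3, in complex 66. ZP2 had 0 counts in 7 of the 19 cumulus libraries and ZP3 had 0 counts in 3 of them. In 19 of 19 complexes the share of EPAS1 was above that of both zona genes. The summed CPM of ZP2 and ZP3, 2 of the 10 oocyte markers listed, ranged from 0 to 1.37 in BCB positive and from 0.259 to 65.3 in BCB negative cumulus cells. On a log2 scale of CPM it correlated with TMM-scaled EPAS1 at r = 0.644 over all 19 cumulus libraries, but at −0.284 within BCB positive and 0.422 within BCB negative ones. The part of carry-over in cumulus EPAS1, or in its difference between the classes, was not tested.

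In oocytes, EPAS1 did not pass the test between BCB classes. It ranged from 234 to 392 TMM CPM in the 9 BCB positive oocytes, with a median of 314. In the 10 BCB negative oocytes it ranged from 172 to 359 TMM CPM, with a median of 299. The classes overlapped over most of their range. Their means were 310 ± 50 (SD, n = 9) and 286 ± 60.7 (SD, n = 10). The log2 fold change, BCB positive minus BCB negative, was 0.12 (SE 0.12, edgeR adjusted p = 0.938), and an exact permutation test of the log2 levels over 92378 splits gave a difference of 0.13 (two-sided p = 0.342). No gene passed in this contrast, 0% of 12753 tested, although 711 had an unadjusted p under 0.05 and DESeq2 called 1.

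The runs of complex numbers did not give the same picture. Among complexes 65 to 74, the 3 BCB negative oocytes were at 247, 249 and 172 TMM CPM, for complexes 65, 66 and 68. The 6 BCB positive oocytes of the same run ranged from 260 to 392 TMM CPM, with a median of 308, and all of them were above the 3 BCB negative ones. Within this run the exact permutation p was 0.0238, which is the smallest that 84 splits allow for a two-sided test. EdgeR gave a log2 fold change of 0.53 (SE 0.16, adjusted p = 0.101), which did not pass. Among complexes 6 to 24 the order was the opposite, with 344 TMM CPM in the BCB negative oocyte against 314, 338 and 234 in the BCB positive ones. The 6 BCB negative oocytes of complexes 86 to 91 ranged from 225 to 359 TMM CPM with a median of 319, and 5 of them lay within the range of the BCB positive oocytes.

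**Figure D2:**
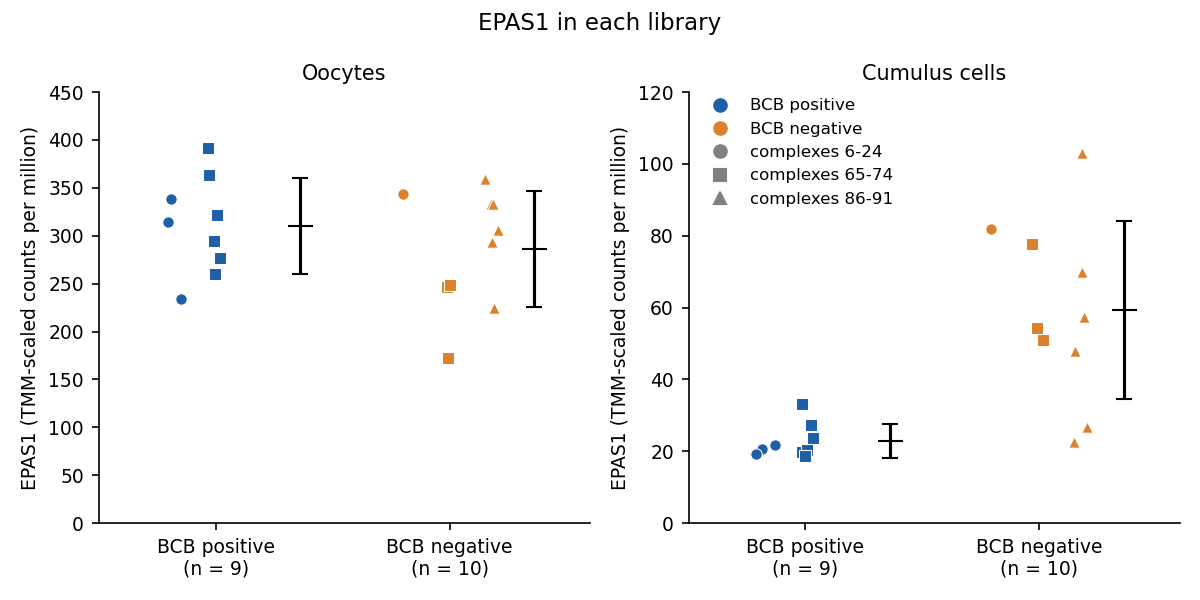
EPAS1 in every library, in TMM-scaled CPM, for oocytes on the left and cumulus cells on the right, with different vertical scales that both start at 0. Points are libraries, with a marker for each run of complex numbers, and black bars give the mean ± SD. The oocyte classes overlap, whereas 8 of the 10 BCB negative cumulus libraries lie above all 9 BCB positive ones.

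In cumulus cells, the contrast for which the gene was chosen, the level was lower in BCB positive complexes. EPAS1 ranged from 18.8 to 33.1 TMM CPM in the 9 BCB positive libraries, with a median of 20.7 and a mean of 22.8 ± 4.70 (SD, n = 9). In the 10 BCB negative libraries it ranged from 22.5 to 103 TMM CPM, with a median of 55.9 and a mean of 59.2 ± 24.8 (SD, n = 10). Of the BCB negative libraries, 8 were above every BCB positive library, and complexes 87 and 88, at 26.7 and 22.5 TMM CPM, lay within the BCB positive range. The coefficient of variation was 20.6% in BCB positive and 41.8% in BCB negative libraries. The fitted log2 fold change, BCB positive minus BCB negative, was −1.36 (SE 0.23), and 279 of 12313 genes had a lower one. In such bulk libraries, fewer cells of a type and less RNA per cell cannot be told apart.

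The size of this difference depended on the scaling. On library totals alone, BCB positive cumulus libraries ranged from 21 to 41.8 CPM and BCB negative ones from 24.5 to 82.5 CPM, and 6 of 10 BCB negative libraries were above every BCB positive one. The log2 fold change was then −0.83 (SE 0.22). Without TMM the median log2 fold change of all genes moved from −0.01 to 0.46, and EPAS1 was −1.29 relative to it. The TMM factors ranged from 1.09 to 1.28 in BCB positive and from 0.538 to 1.16 in BCB negative cumulus libraries, so they differed between the classes. Across all genes, 69 of 12313 passed an FDR of 0.01 in cumulus cells with edgeR (0.560%), of which 5 (0.0406%) were higher and 64 lower in BCB positive complexes. That number was unstable: it ranged from 6 to 160 when each complex was left out, moved by more than 1.5 times for 17 of the 19 complexes, and was 2 with the log10 library total as a covariate. On library totals alone the split was 1629 higher and 103 lower.

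Within complexes 65 to 74 the cumulus classes were apart on the TMM scale. The 3 BCB negative libraries were at 50.9, 54.3 and 77.6 TMM CPM. The 6 BCB positive libraries ranged from 18.8 to 33.1 TMM CPM, with a median of 22.1. The log2 fold change within the run was −1.34 (SE 0.23). On library totals alone, complex 69, with 41.8 CPM, overlapped the BCB negative libraries, which had 35.7, 49.3 and 41.7 CPM. Among complexes 6 to 24 the BCB negative library was at 82.0 TMM CPM and the BCB positive ones at 20.7, 19.2 and 21.8. The 6 BCB negative libraries of complexes 86 to 91 covered the whole range of the class, from 22.5 to 103 TMM CPM with a median of 52.6. The 2 BCB negative libraries with BCB positive levels both belonged to this run.

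The BCB difference in oocytes exceeded that in cumulus cells by 1.43 on the log2 scale (SE 0.27). This value contains the contrast used to choose the gene and has no test. Read the other way, the fitted log2 fold change of oocyte over cumulus was 3.30 in BCB positive and 1.87 in BCB negative complexes. The ratio of the pairs, on the common TMM scale, ranged from 7.16 to 15.2 in the 9 BCB positive complexes and from 1.57 to 10.4 in the 10 BCB negative complexes. Complexes 87 and 88, the BCB negative complexes with low cumulus EPAS1, had the 2 highest ratios of their class.

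EPAS1 was lower in larger cumulus libraries over all complexes but not within both classes. Pearson's r between log2(TMM CPM + 1) and the log10 total was −0.619 and Spearman's rho −0.496 (n = 19). When the 2 libraries with the most extreme totals relative to the median were set aside, r was −0.531. Within the 9 BCB positive libraries r was 0.422, and within the 10 BCB negative ones −0.401. In the run of complexes 65 to 74, whose 3 smallest libraries are the BCB negative ones, it was −0.871 (n = 9), and in complexes 86 to 91 it was −0.238 (n = 6). On library totals alone the pooled r was −0.315. Counts divided by the TMM factor alone and put through the inverse hyperbolic sine, the scale of the study's co-expression analysis, keep the library size, and there r was 0.579. The total is also the denominator of CPM, so the axes are not independent.

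Class and library total were not separable over the whole set, but both classes reached totals between 3585944 and 8013318. In that range, the 5 BCB positive libraries were at 20.7, 19.2, 21.8, 18.8 and 27.4 TMM CPM, for complexes 17, 19, 24, 73 and 74. The 4 BCB negative libraries were at 26.7, 22.5, 70 and 47.8 TMM CPM, for complexes 87, 88, 89 and 90, all from the last run. Complexes 89 and 90 lay above all 5 BCB positive libraries of similar size, whereas 87 and 88 did not. The log2 ratio of the class means was −0.95 there. With the log10 total as a covariate over all 19 libraries, the fitted log2 fold change was −1.21 (SE 0.29).

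**Figure D3:**
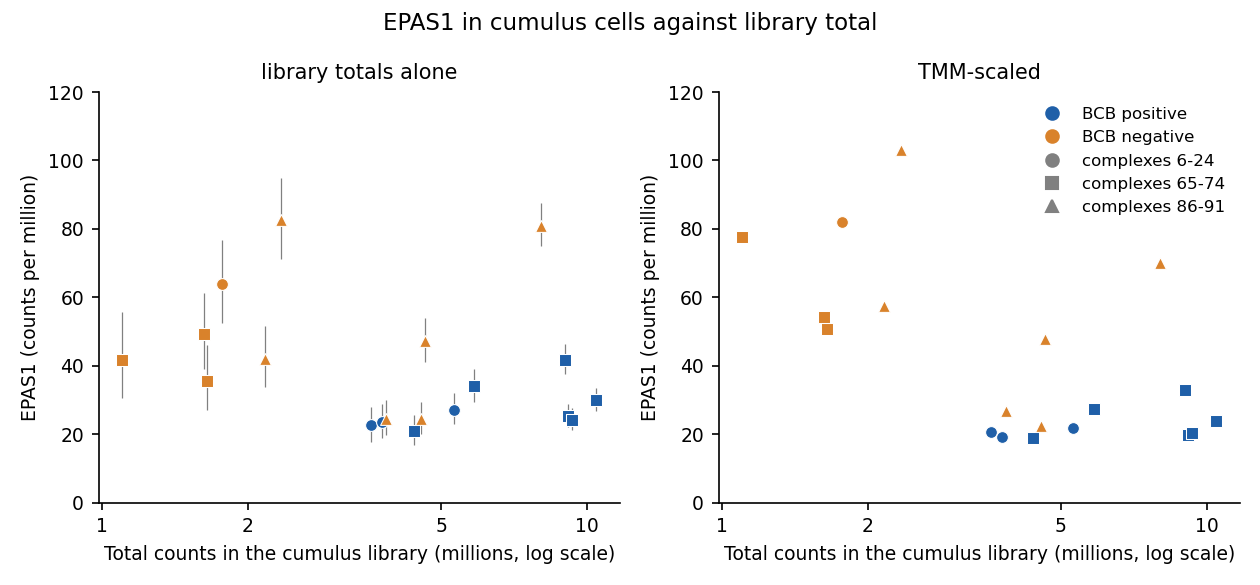
EPAS1 in the 19 cumulus libraries against the total count of the library (log axis), as CPM on library totals alone on the left, with 95% Poisson intervals as grey lines, and TMM-scaled on the right. The libraries below 3585944 counts are all BCB negative. Where the totals of the classes overlap, 2 BCB negative libraries lie above the BCB positive ones and 2 lie among them.

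Other features of the cumulus libraries moved together with EPAS1. Their values are on library totals alone, whereas EPAS1 was TMM-scaled. With the TMM factor itself, EPAS1 had an r of −0.752 over all 19 libraries. It was 0.461 within BCB positive and −0.456 within BCB negative ones. Between 0.966% and 2.86% of the counts fell on the 13 protein-coding genes of the mitochondrial genome in BCB positive libraries and between 1.17% and 17.4% did in BCB negative ones. EPAS1 correlated with this share at r = 0.741 over all 19 libraries, at −0.686 within BCB positive and at 0.518 within BCB negative libraries. The summed CPM of the cumulus and granulosa markers was 12188 to 31541 in BCB positive and 5441 to 16444 in BCB negative libraries, and correlated with EPAS1 at r = −0.724, 0.0677 and −0.588 in the same order. After TMM scaling, the 8 markers had a median log2 fold change, BCB positive minus BCB negative, of only 0.49 (0.02 to 0.74). Of these, 0 passed an FDR of 0.01 with edgeR, beside 0.560% of all genes. Of 10 endothelial markers 4 had an identifier, and TEK, TIE1, VWF and FLT1 together had 2.79 to 14.8 CPM in BCB positive and 5.83 to 38.1 CPM in BCB negative cumulus libraries (r = 0.579, −0.0704 and 0.515). TEK had a median of 0.924 CPM, TIE1 of 0.558, VWF of 2.0 and FLT1 of 4.50, and TIE1 was at 0 in the lowest library. COL1A2, the 1 of 8 theca and stroma markers with an identifier, had at most 0.942 CPM in BCB positive and 19.0 CPM in BCB negative cumulus libraries. None of the 6 leukocyte markers had an identifier. The part of these features in the EPAS1 difference was not tested. The same 4 endothelial genes were more abundant in oocytes, between 229 and 337 CPM together, and VWF and FLT1 were higher in oocytes than in cumulus cells (log2 fold changes 3.79 and 4.12, edgeR adjusted p at most 1.74e-13). TEK and TIE1 passed the filter on low counts only in oocytes, with medians there of 78.5 and 11.3 CPM, and are described by their levels.

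After TMM scaling, no relation was detected between EPAS1 in an oocyte and EPAS1 in its own cumulus cells, whereas a scale that keeps the library size gave a positive one. Over 19 complexes r was −0.126, with a permutation p of 0.613 that became 0.619 after adjustment over 5 relations, and rho was −0.147 (permutation p = 0.545, adjusted 0.682). Without the 2 complexes farthest from the median oocyte level r was 0.0700. Within BCB positive complexes r was −0.233 (exact p = 0.548, n = 9), and within BCB negative ones 0.173 (permutation p = 0.639, n = 10). Within complexes 65 to 74 r was −0.826 (n = 9). There the 3 BCB negative complexes had both the lowest oocytes and the highest cumulus levels, so that the points form separate clusters by class. This r contains the cumulus contrast used to choose the gene and is given with no test. On library totals alone it was −0.602. Within the 6 complexes 86 to 91, all BCB negative, r was 0.673 (exact p = 0.126). On the inverse hyperbolic sine scale of the study's co-expression analysis, which keeps the library size, r over 19 complexes was 0.601 (permutation p = 0.00629, not adjusted). There it was 0.711 within BCB negative complexes (permutation p = 0.0213, n = 10) and 0.420 within BCB positive ones (exact p = 0.261, n = 9).

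**Figure D4:**
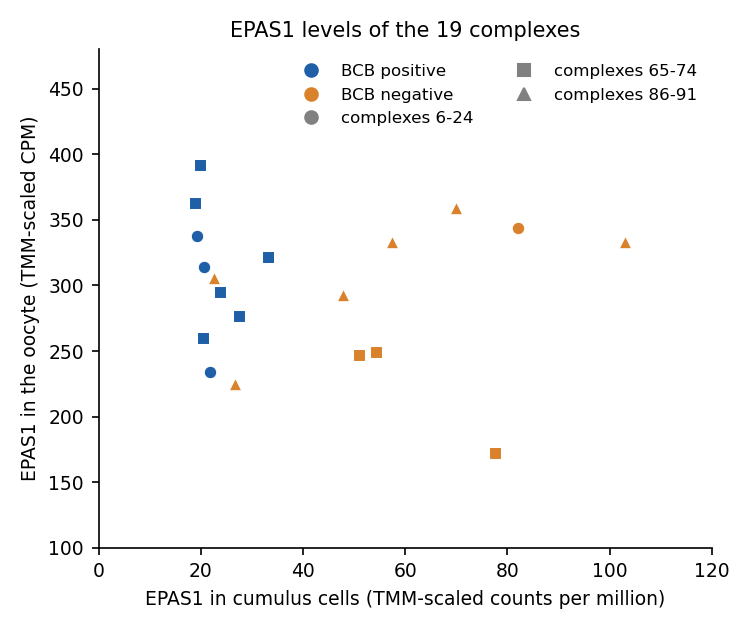
EPAS1 in the oocyte against EPAS1 in its own cumulus cells for 19 complexes, both in TMM-scaled CPM, with the vertical axis starting at 100. BCB positive complexes (blue) form a column at or below 33.1 on the horizontal axis. Within the run 65 to 74 (squares), the 3 BCB negative complexes lie below the 6 BCB positive ones in the oocyte.

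The HIF pathway around EPAS1 was covered in part. Of 46 listed symbols 22 could be tied to an identifier through the study's supplementary tables, EPAS1 included, and HIF1A and ARNT, the other main HIF subunits, were not analysed here. Identifiers with a symbol come from gene lists ordered by the study's own contrasts: of the tested cumulus genes, 31.2% of those with a symbol had an unadjusted p under 0.05, against 11.5% of those without, so the list is not an even sample. HIF3A, the remaining alpha subunit, had a median of 2.14 CPM in oocytes and 0.0959 CPM in cumulus cells, where it missed the filter on low counts. It ranged from 0.202 to 8.99 CPM in oocytes and from 0 to 1.28 CPM in cumulus cells, so that the compartments overlapped. It entered the contrast of compartments only through the oocytes, where it was more abundant, and its levels there are given as a description.

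Between BCB classes, 0 of the 20 other pathway genes tested in cumulus cells passed an FDR of 0.01 in either direction with edgeR, beside 0.560% of all genes. There were 3 with an unadjusted p under 0.05, beside 18.7% of all genes, and DESeq2 called 0. Their median log2 fold change was 0.34, against −0.01 over all genes. On library totals alone 7 passed, all higher in BCB positive complexes, beside 13.2% of all genes higher on that scale. EGLN2, an oxygen-sensing prolyl hydroxylase, had a log2 fold change of 0.61 (SE 0.17, adjusted p = 0.0485). VHL, which delivers hydroxylated HIF alpha subunits to degradation, was at 0.50 (SE 0.29). CITED2 and CITED4, which compete with HIF for its coactivator CBP/p300, were at −0.51 (SE 0.30) and −0.04 (SE 0.16).

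Among the 16 hypoxia response targets tested in cumulus cells, the highest values belonged to SLC16A3, a lactate exporter (log2 fold change 0.96, SE 0.49), BHLHE40, a transcriptional repressor (0.68, SE 0.53), and VEGFA, the vascular growth factor (0.67, SE 0.44). SLC2A1, a glucose transporter, was at −0.12 (SE 0.34). VEGFA and SLC2A3, a further glucose transporter, were abundant in cumulus cells at medians of 1226 and 1302 CPM.

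In oocytes, 0 of 20 pathway genes passed between the BCB classes with edgeR, as for all genes, with 9 at an unadjusted p under 0.05, beside 5.58% of all genes, and 0 called by DESeq2. The uneven choice of symbols bears on this count too: 14.1% of the tested oocyte genes with a symbol had an unadjusted p under 0.05, against 0.785% of those without. Their median log2 fold change was 0.62, against −0.01 over all genes. The largest values were those of VEGFA (2.49, SE 0.99), SLC16A3 (1.27, SE 0.42) and SLC2A3 (1.21, SE 0.69), all with far higher levels in cumulus cells, and the lowest among targets was PFKFB4, a regulator of glycolysis (−0.11, SE 0.15). HIF3A was at 1.07 (SE 0.44), CITED2 at 0.67 (SE 0.20), EGLN2 at −0.03 (SE 0.10) and VHL at −0.39 (SE 0.15). Cumulus and granulosa markers were present in oocytes too. They summed to 55.4 to 3062 CPM in BCB positive and 78.6 to 756 CPM in BCB negative oocytes, and the 5 that were tested had a median log2 fold change of 1.91, with 0 passing. Their part in the pathway values was not tested.

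EPAS1 stood on the oocyte side of the contrast between compartments, and most of the other pathway genes on the cumulus side. Of the 21 other pathway genes, 19 passed the filter on low counts in both compartments. Of these, 18 were lower in oocytes and 1, CITED2, did not pass (log2 fold change −0.16, edgeR adjusted p = 0.400), beside 41.2% lower of the 10281 genes past the filter in both and 42.3% of all genes tested. HIF3A and CITED4 were in the contrast only through the compartment where each is high, so their folds are no support. With the complex number as a replicate block 15 of the 19 were called lower and 0 higher. EGLN2 and VHL, at block-adjusted edgeR p of 0.0142 and 0.0131, and 1 target no longer passed. Without the block all 16 targets were lower, from −0.92 for KDM4B, a histone demethylase, to −5.89 for SLC2A3. VEGFA was at −5.88 (SE 0.67), and the glycolytic enzymes PGK1 and ENO1 at −5.07 (SE 0.36) and −4.24 (SE 0.27). EGLN2 (−0.36, SE 0.10) and VHL (−0.69, SE 0.17) differed less. CITED4 had a median of 0.708 CPM in oocytes and 44.8 CPM in cumulus cells. The median over the 19 genes was −2.92, against 0.06 over the 10281 genes.

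**Figure D5:**
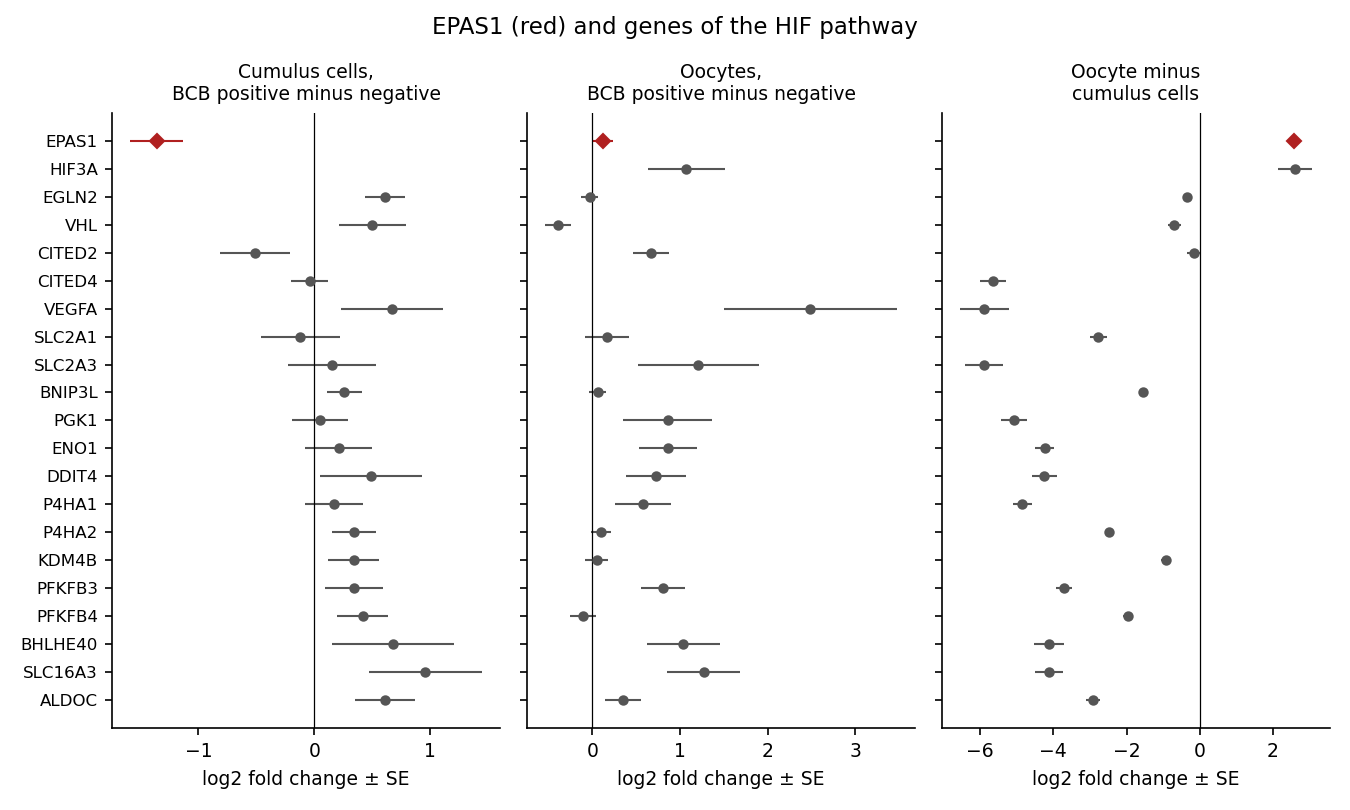
Log2 fold changes ± SE of EPAS1 (red diamonds) and 20 genes of the HIF pathway (grey circles) in 3 contrasts, with a separate horizontal scale for each. HIF3A in cumulus cells and CITED4 in oocytes missed the filter on low counts and have no point between the BCB classes. EPAS1 and HIF3A lie right of 0 in the contrast of oocyte minus cumulus, and the other genes lie left of it.

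Levels of the 4 sensors and cofactors were also compared with EPAS1 over the 19 cumulus libraries, and none of the relations passed adjustment over 5 relations. For EGLN2 r was −0.382 (adjusted permutation p = 0.258). Its rho of −0.528 had a permutation p of 0.0219 before and 0.110 after adjustment. For VHL r was −0.387 (adjusted permutation p = 0.258) and rho −0.454 (adjusted permutation p = 0.129). For CITED2 r was 0.230 and for CITED4 −0.122 (adjusted permutation p = 0.573 and 0.619). The negative sign for EGLN2 did not hold within the classes, where r was 0.145 and 0.327 in BCB positive and BCB negative libraries, nor was it kept in complexes 86 to 91 (r = 0.335). On library totals alone, rho for VHL was −0.626 and passed (permutation p = 0.00481, adjusted 0.0240), while r was −0.567 (adjusted permutation p = 0.0564). Within the classes that rho was −0.100 in BCB positive (permutation p = 0.810) and −0.527 in BCB negative libraries (permutation p = 0.125). The pooled value thus also holds the class difference in EPAS1 for which the gene was chosen.

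The study named 9 other transcription factors with EPAS1, chosen on these same cumulus libraries, so neither their direction there nor the number called is independent evidence, and both are given as a description. Their fitted log2 fold changes in cumulus cells, BCB positive minus BCB negative, lay between −3.40 and −2.0, and 3 of the 9, ETV1, HOXA9 and MYOG, passed an FDR of 0.01, beside 0.520% of all genes lower. EPAS1 had the smallest of these differences in size, and all but MYOG had a cumulus median between 1.85 and 3.12 CPM. Between compartments, 5 of the 9 passed the filter on low counts on both sides, of which 4 were higher in oocytes, with and without the complex as a replicate block, and 1, HOXA9, did not pass, beside 43.7% higher of the 10281 genes past the filter in both. ETS2, MYOG, PAX5 and TFAP2A passed the filter only in cumulus cells, where they were more abundant, and are not counted. LEF1 and MSX1, developmental transcription factors, had medians of 253 and 1025 CPM in oocytes and 2.28 and 3.12 CPM in cumulus cells. ETV1 of the ETS family and ISL1, a LIM homeobox factor, were also higher in oocytes, with log2 fold changes of 3.31 (SE 0.22) and 3.59 (SE 0.25). MYOG, a factor of muscle differentiation, had 107 CPM in cumulus cells and 1.49 CPM in oocytes. Of the 5 tested between BCB classes in oocytes, 0 passed.

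The genes with a symbol whose level was most like that of EPAS1 over the 19 cumulus libraries were EPHB2, an ephrin receptor (r = 0.863), KRT8, a keratin (0.861), RASAL2, a regulator of Ras (0.845), ETV1 (0.841), FABP5, a fatty acid binding protein (0.839), and NPR1, a natriuretic peptide receptor (0.819). The most opposite were FSHR, the receptor for follicle-stimulating hormone (−0.848), TMED4, of the secretory pathway (−0.842), and C12orf76 (−0.830). Likeness was Pearson's r of log2(TMM CPM + 1), the values share their libraries and scaling factors, and the 5th and 95th percentiles of 12312 genes were −0.529 and 0.508. EPHB2 and NPR1 were also lower in larger libraries (log10 total, r = −0.755 and −0.803). With the class means removed, r was 0.632 for EPHB2, 0.721 for KRT8, 0.694 for RASAL2 and −0.800 for FSHR. Within BCB positive libraries alone, where EPAS1 varied little, r was 0.132 for EPHB2, 0.0706 for KRT8, 0.520 for RASAL2 and −0.568 for FSHR.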

How the data were processed

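Single oocytes and the cumulus cells of the same complexes were sequenced. Per the labels and the methods of the study, the authors aligned reads to ARS-UCD1.2 with HISAT2 2.1.0, removed duplicates and counted reads on Ensembl genes with featureCounts 1.6.0. The deposited values are raw counts per gene, whole numbers with no normalization, in 1 table per compartment. Groups and complex numbers came from the sample labels. EPAS1 and the gene lists were chosen with earlier results of these data known.

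The filter asked for over 2 CPM in 9 or more of a compartment's 19 libraries (12753 in oocytes, 12313 in cumulus cells, 14785 in either). Contrasts were fitted with edgeR 4.0.16 in R 4.3.3 (TMM, robust quasi-likelihood test, Benjamini-Hochberg adjustment over all genes kept, FDR threshold 0.01), with DESeq2 1.42.0 as an alternative. Levels were log2(TMM CPM + 1) in relations, with a pseudocount of 1, 100000 permutations, or all of them under 10 complexes (Python 3.11.15, scipy 1.17.1). Symbols came from the study's supplementary tables (4934 of 27607 identifiers). Genes named were EPAS1, the identified HIF pathway genes (for targets of the BCB contrasts, the 3 largest changes each way), the transcription factors the study named with EPAS1, the 6 most and 3 least alike in cumulus cells, and markers. 1 gene that this rule covers is not reported here, although it stays in the counts and medians of its list.

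In simulated counts the test recovered 69% of 2-fold and 92% of 4-fold changes in oocytes (12753 genes), and 46% and 90% in cumulus cells (12313 genes). False calls were 2 and 1. The counts were drawn independently with means proportional to the library totals, and the classes did not differ in composition. The real cumulus classes differed in their TMM factors, so these shares do not give the power of that contrast. No library was a copy of another (highest correlation of log2 CPM 0.9943 in oocytes, 0.9895 in cumulus cells). Oocyte and cumulus libraries of the same number come from the same complex and are paired by design, although their deviations from group means over 10281 genes correlated only from −0.019 to 0.215 (median 0.0756). Alternatives were other normalizations, filters and tests, run or library total as a covariate, complexes 65 to 74 alone, and leaving out each complex. Columns of the authors' own comparisons in the supplementary tables were not used.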

Additional observations from a re-analysis of the deposited data

Results flagged for a closer look

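Within complexes 65 to 74, EPAS1 lay on opposite sides in the compartments: every BCB positive oocyte was above every BCB negative oocyte (log2 fold change 0.53), and every BCB positive cumulus library was below every BCB negative one on the TMM scale (log2 fold change −1.34). The difference between these effects was not tested, since the cumulus contrast was used to choose the gene. In addition, the cumulus library of BCB negative complex 89, with a total of 8013318 counts, stood apart from the other 9 of its class by a gap of more than the Dixon limit. Of 12 groups of values examined for a sample apart, this was the only one found, and chance flags about 1 in 20. Its EPAS1 level was 81.0 CPM. The EPAS1 levels themselves had no sample apart in any of the 4 groups.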

How the results depend on the processing

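For EPAS1 in cumulus cells the log2 fold change was −0.83 on library totals alone. It lay between −1.53 and −1.21 under the other 8 alternatives, and between −1.46 and −1.24 when each complex was left out. In oocytes it stayed positive and did not pass under 9 alternatives (0.11 to 0.53, edgeR or DESeq2 adjusted p 0.101 to 0.957), nor with any complex left out (0.06 to 0.16). Between compartments it passed under 7 alternatives (2.34 to 3.01). With the complex number as a replicate block it was 2.61 (SE 0.21, edgeR adjusted p = 2.97e-11), and its call did not change. The block took the pathway genes called lower in oocytes from 18 to 15 of the 19 past the filter in both compartments and the called genes of all genes from 13127 to 13014. It was 2.52 to 2.64 with each complex left out. The number of pathway genes called in cumulus cells was 1 at an FDR of 0.05 and 7 on library totals alone, and 0 in 8 other alternatives and with each complex left out. In oocytes it was 0 throughout. The number of all genes called in cumulus cells, 69, became 360 at an FDR of 0.05, 1732 on library totals alone, 365 with DESeq2, 164 without the filter, 115 with the run and 2 with the log10 total as a covariate. It ranged from 6 to 160 with each complex left out and moved by more than 1.5 times for 17 of 19 complexes, all but 87 and 90, and the cause was not tested. The relation of cumulus EPAS1 to the library total (r = −0.619) was −0.315 on library totals alone, −0.496 as Spearman's rho and 0.579 on the inverse hyperbolic sine scale, which keeps the library size. The relation between EPAS1 in the oocyte and in its cumulus cells (r = −0.126) was 0.11 on library totals alone and 0.601 (permutation p = 0.00629) on the inverse hyperbolic sine scale. The relations to sensors and cofactors gave 0 calls of r in each scaling tried and 0 of rho after TMM. Leaving out complexes for counts and for the contrast of compartments, the range of shared totals, and the alternatives for sensors and cofactors were chosen after seeing the data. EPAS1 itself had at least 46 counts in every library, so that depth limits the smaller cumulus libraries most.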

Other observations

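In oocytes the gene with a symbol most like EPAS1 over the 19 libraries was MRTFA, a coactivator of serum response factor, with r = 0.899, followed by BCOR, a corepressor, with r = 0.877, both named after their values were seen. Within BCB positive and BCB negative oocytes alone, r was 0.921 and 0.912 for MRTFA and 0.888 and 0.918 for BCOR. The 5th and 95th percentiles of r over 12752 genes in oocytes were −0.573 and 0.613. Between EPAS1 in the oocyte and the log10 library total r was 0.651 in the BCB negative class (n = 10) and 0.164 in the BCB positive class (n = 9), given as a description. In complexes 86 to 91, which are 6 of the 10 BCB negative ones, it was 0.0674, so the value of the class was not found within that run.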
